A study of Mus musculus with 21 samples.

Results

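The cells described here are the dermal fibroblasts of mouse back skin at embryonic day 15 (strain CD1), sorted alive into separate wells and sequenced by SORT-seq, a plate method in which a random tag on every captured RNA molecule (a unique molecular identifier, UMI) lets molecules rather than copies be counted. They are the 1155 wells whose name carries the prefix Fb and that held at least 3000 UMIs over all gene rows, out of 1371 fibroblast-named wells and 1967 wells in all. They lie in 7 libraries, numbered 1 to 7, which held between 108 and 208 of them each. Of the fibroblast-named wells nearest to the minimum, the lowest kept had 3063 and the highest left out 2985 deposited units. Further wells are used for comparison: condensate-named wells (DC0, DC1 and DC2, 68 of at least 3000 UMIs in the same libraries) and 112 wells of these libraries named for spike-in RNAs. All wells share the strain, the age and the tissue, and no treatment, genotype or animal is given for them. The 12 bulk samples of the study were not analysed here. The labels do not say how a well got its name, nor whether each library had animals of its own, so each p-value measures the spread between libraries, which may be technical.

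Dermal fibroblasts build the connective tissue of the skin. They secrete fibrillar collagens, the rope-like proteins that bear load, and proteoglycans such as decorin and lumican that bind collagen and set the width and spacing of its fibres. In embryonic back skin the fibroblasts below the epidermis and those of the deeper dermis follow different paths: the upper ones answer WNT signals and can gather into dermal condensates, from which hair follicles get their dermal papilla, and the lower ones give rise to reticular dermis and fat cells. Imprinted genes, which are transcribed from the copy of a single parent, are known to regulate growth in such embryonic tissue.

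The kept wells held a median of 22660 UMIs and 5121 detected genes, with library medians from 12090 UMIs in library 2 to 33498 UMIs in library 1. The 112 spike-in-named wells had a median of 431 UMIs of mouse genes, whose source (free RNA, exchanged barcodes or a stray cell) was not tested. Library 4 stood apart from the others for several of the most abundant genes and library 2 for a ribosomal RNA row, as given below. Libraries 3, 5, 6 and 7 carry the same tag in their descriptions, taken here as a shared sequencing run (shared run). The description of library 7 names another library than its title does. Library 7 was mapped by its title, so its place in the shared run is less sure. The numbers of wells repeat between plates: 364 well numbers were in use and 334 of them occurred in 2 or more libraries.

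Fibroblast markers were present throughout. Of the 6 markers checked (the receptor gene Pdgfra, the collagen genes Col1a1, Col1a2 and Col3a1, and the proteoglycan genes Dcn and Lum), 1094 wells had a UMI of all 6, 60 had a UMI of 5, 1 well had a UMI of 4, and 0 wells had fewer. Col1a2 averaged 16416 ± 2332 CPM, Col3a1 15914 ± 1980, Dcn 3666 ± 380, Lum 1841 ± 127 and Pdgfra 327 ± 21.9 (SD, n = 7 libraries); a level is the mean over the wells of a library of each well's UMIs of a gene per 1000000 UMIs (CPM). Pdgfra had a UMI in 94.7% of fibroblast-named wells and in 10.7% of spike-in-named wells. With each fibroblast-named well reduced to 3000 UMIs, the share was 59.1%. Fibroblast genes were also present in spike-in-named wells: Col3a1 stood at 15677 CPM over the summed kept wells and 10014 CPM over the summed spike-in-named wells, and Lum at 1729 and 485 CPM. The share of UMIs that the 3 genes Col1a1, Col1a2 and Col3a1 held ran from 0.233% to 14.6% of a well, with a median of 3.81%.

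The profile was spread over many genes. The 10 most abundant genes held 11.1% ± 1.40 of the UMIs, the top 25 held 16.9% ± 1.496, the top 100 held 30.6% ± 1.37 and the top 1000 held 61.9% ± 0.788 (SD, n = 7 libraries). A mean of at least 100 CPM was reached by 1749 genes. The libraries largely named the same leading genes: of the 25 genes highest on average, 21 in library 4 and up to 24 in other libraries were also among that library's own top 25.

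Matrix genes led the protein-coding part of the list. Col1a2 (chr6:4504814-4541544, plus strand, mm10), which encodes the second chain of type I collagen, had 13034 CPM in the lowest library, 17050 in the median library and 19223 in the highest. Col3a1 (chr1:45311538-45349706, plus strand), the gene of type III collagen, had 14862, 15175 and 20308 CPM in the same order, and its highest value was that of library 4. Col1a1 (chr11:94936224-94953042, plus strand), the first chain of type I collagen, had 3955, 8832 and 10748 CPM, and its lowest value was that of library 4. The type I and type III genes were thus opposite in library 4, where Col3a1 was at its highest and Col1a1 at its lowest, while the other 6 libraries spanned 8650 to 10748 CPM for Col1a1 and 14862 to 16053 CPM for Col3a1. Sparc, whose product binds collagen as it is laid down, averaged 5642 ± 1065 CPM.

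The other leading genes were of ribosomes, mitochondria and growth control. Rn45s, the precursor of ribosomal RNA, ranked first on average at 24508 ± 13211 CPM, and ran from 13289 CPM in library 4 to 52474 CPM in library 2. It is a multicopy gene whose reads can map to many copies, so its level is uncertain. The mitochondrial ribosomal RNA mt-Rnr2 averaged 16575 ± 4639 CPM, with 7181 CPM in library 4 and at least 15393 CPM elsewhere. Among imprinted genes, the growth factor gene Igf2 had 4058 ± 627 CPM, the non-coding RNA H19 3953 ± 933, the Notch-like ligand gene Dlk1 3242 ± 576, and Gnas, which encodes a G protein subunit, 5012 ± 1099. Kcnq1ot1, an imprinted antisense RNA, had 7484 CPM in library 1 and 2319 to 3844 CPM in the other libraries. Its CV between wells was 362% in library 1 and 337% in library 3, against 55.4% to 74.1% elsewhere, and the 10% of wells with the highest share held 23.2% to 72.8% of its summed share by library. It overlaps Kcnq1 on the opposite strand (chr7:143203458-143296549, minus strand), and whether the counting used strand is not given in the sources used here. Of the 25 names, 9 belong to the mitochondrial genome, and the mitochondrial rows as a whole held 6.21% ± 0.621 of UMIs, against 10.5% ± 0.684 for the 85 ribosomal protein rows.

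**Figure D1:**
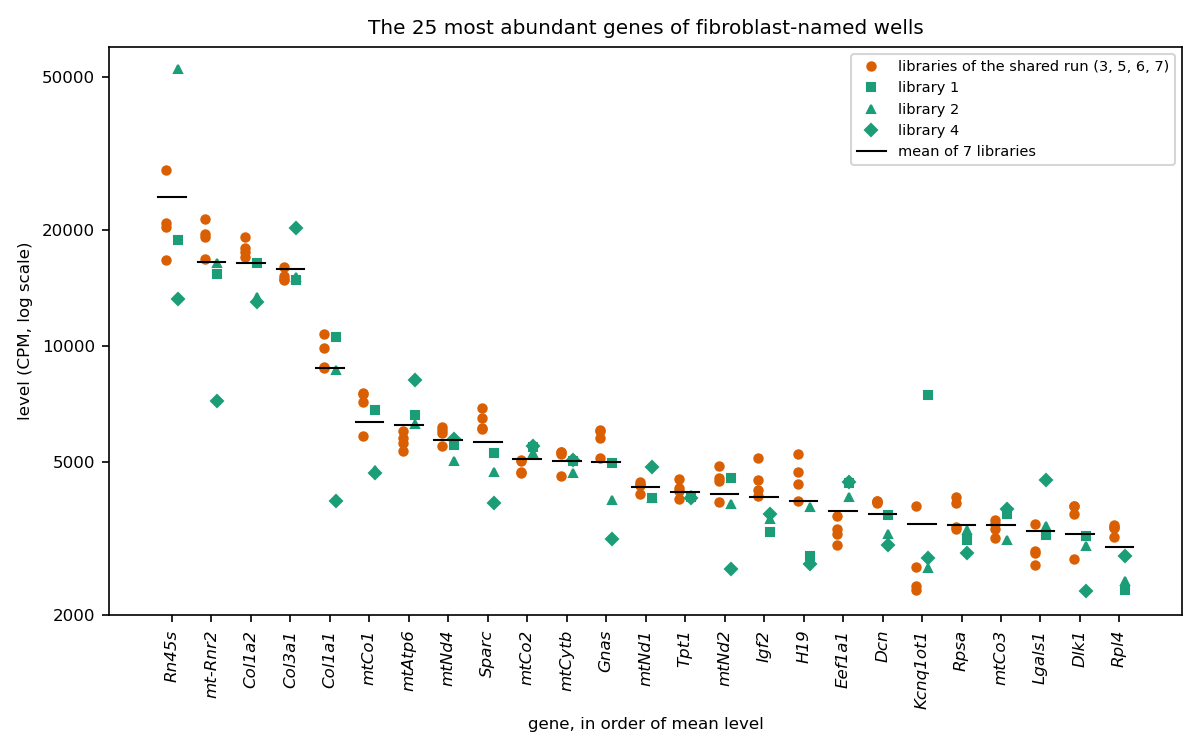
Level (CPM, log axis) of the 25 most abundant genes in each of the 7 libraries, in order of the mean; circles are the libraries of the shared run, other symbols libraries 1, 2 and 4, and lines the mean. Library 2 stands at 52474 CPM for Rn45s and library 4 at 3955 CPM for Col1a1, away from the other libraries.

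How much a gene differed between wells was measured in each library as its coefficient of variation (CV, the SD over the mean) of expression shares after the part due to counting molecules was taken out, with 0 written where nothing was left. Over the 5089 genes with a mean of at least 0.1 UMI per 3000, the median CV was 57.7%, and 5% of genes lay below 31.5% and 5% above 123.2%. Low genes varied more: the median was 72.1% for the fifth of genes with the lowest level (up to 44.8 CPM) and 40.95% for the fifth with the highest (from 153.3 CPM). The 6 spike-in RNAs with at least 20 UMIs per well, whose amount is the same in every well, had CVs of 4.92% to 10.3%. They were measured the same way, but against the spike-in total. Of all 9 spike-in RNAs with at least 5 UMIs per well, the highest CV was 20.1%. The lowest mean CV of any gene tested was 15.5%, under that highest spike-in value. The spike-in RNA with the 20.1% had 5.27 UMIs per well. None under 5 UMIs per well was measured, so the technical level of genes with fewer UMIs is not known. Libraries 2 and 4, the shallowest, had median CVs of 74.3% and 71.3%, and the other libraries 49.8% to 56.3%.

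Because variability falls with level, each gene was then set against the genes nearest to it in level in the same library, as the difference between its log2 mean squared share over squared mean share and the running median of that value (relative variability, 0 for a gene like its neighbours). By limma over the 7 libraries, with Benjamini-Hochberg adjustment over all genes, 1013 of 5089 genes were more variable than genes of a like level (19.9%) and 554 were less variable (10.9%). Of the more variable genes, 848 were so in all 7 libraries alike. The more variable genes included most of those listed for cell division, matrix partners, cholesterol synthesis and dermal depth. The differences of the less variable genes were small: under a test that asks for a difference over 0.1, 740 remained more variable and 39 less.

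**Figure D2:**
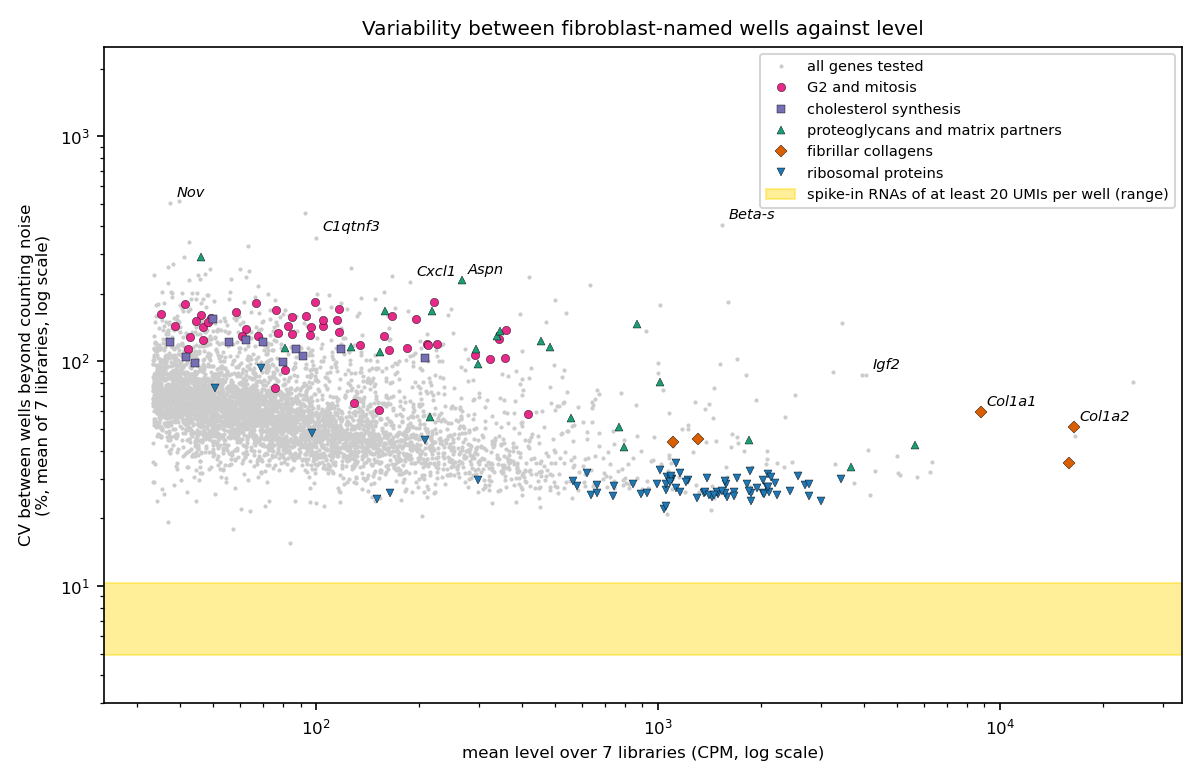
CV between wells beyond counting noise (%, mean of 7 libraries) against mean level (CPM), both on log axes, for the 5089 genes tested, with 5 lists marked. The band is the range of the 6 spike-in RNAs of at least 20 UMIs per well, measured against the spike-in total. Ribosomal protein genes lie near 27.6% and genes of G2 and mitosis near 136%, and every gene lies above the spike-in band. The band does not give the technical level at low counts: a spike-in RNA of 5.27 UMIs per well had a CV of 20.1%.

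Genes of protein synthesis had the lowest median CVs of the lists measured. Of 75 ribosomal protein genes tested, 52 were less variable than genes of their level and 1 more (10.9% and 19.9% of all genes). Their median CV was 27.6%, against 57.7% for all genes and 40.95% for the fifth of genes with the highest level. Rpl8, a protein of the large subunit, had a CV of 15.8% in the lowest library, 20.4% in the median library and 32.1% in the highest. At the top of the range of levels most neighbours are ribosomal genes themselves. The relative values of this list lie close to 0 (median -0.05), and the CVs are not matched for level. The exception that was more variable is Rpl39l, a gene known for expression in testis, at 68.8 ± 8.92 CPM with a CV of 93.1% ± 5.71 (relative variability 0.44, SE 0.065, adjusted p = 7.09e-05, limma, above its neighbours in 7 of 7 libraries); it was named after its value was seen, and its reads can be shared with Rpl39.

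Translation factors, the proteasome and the respiratory chain followed the same order of CVs. Of 21 translation factor genes, 13 were less variable and 0 more (10.9% and 19.9% of all genes), with a median CV of 30.1%. Of 14 genes of the proteasome, the complex that degrades tagged proteins, 8 were less variable and 0 more (31.8%). Of 32 nuclear genes of the respiratory chain, 14 were less variable and 2 more (32.0%), the more variable ones being Cox7b and Cox6c, subunits of cytochrome oxidase. With libraries 1, 2 and 4 alone these counts of less variable genes were 13 for ribosomal proteins, 2 for the proteasome and 4 for the respiratory chain, and for translation factors 3. The actin and tubulin cytoskeleton was less even: 14 of 21 genes tested were more variable and 1 less, with a median CV of 50.01%. The single genes Actb and Vim lay under this median. Actb had 2592 ± 198.5 CPM with a CV of 31.9% ± 2.80. Vim, the intermediate filament gene of mesenchymal cells, had 2457 ± 135 CPM with a CV of 35.7% ± 2.47. Vim is slightly more variable than genes of its level (relative variability 0.03, SE 0.008, adjusted p = 0.0172, limma), and Actb did not pass the test (-0.01, adjusted p = 0.65).

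The 15 genes lowest in relative variability were all of low level, 33.4 to 60.4 CPM: Med4, BC056474, Vta1, Gm13826, Mpc1, Ogfr, Lsm7, Nelfa, Hsd17b4, Gm10653, Sec23ip, Agap3, Stoml2, Ndufs7 and Mrps24. They include the Mediator subunit Med4, the mitochondrial pyruvate carrier subunit Mpc1, the splicing factor subunit Lsm7, and Ndufs7 of respiratory complex I. Ndufs7 had 60.4 ± 9.90 CPM and a CV of 22.1% ± 17.0, and its CV was 0 in at least 1 library and at most 38.7%. Each of the 15 had a CV of 0 in at least 1 library, so at this level the difference between wells was in places too small to be told from counting. The relative values ran from -0.70 (Med4) to -0.42 (Mrps24).

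The 20 genes highest in relative variability were C1qtnf3, Tnc, Efemp1, Aspn, Fndc1 and Adamts5 of the matrix, the secreted signals and their inhibitors Nov, Sema3c, Nppc, Igf1, Fst, Bmp4, Cxcl1 and Dkk2, the genes Wdr92, Stmn2 and Capn6, and Cma1, Cpa3 and Beta-s, which belong to mast cells and red blood cells. Each was above genes of its level in 7 of 7 libraries. Their CVs ran from 225% to 514%, against the median of 57.7% for all genes.

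Nov, which encodes a secreted matrix-associated signal of the CCN family, was the most uneven relative to its level. It had 13.1 CPM in the lowest library, 31.5 in the median library and 59.7 in the highest, with a CV of 506% ± 87.8 (relative variability 4.09, SE 0.144, adjusted p = 5.69e-12, limma). In each library the 10% of wells with the highest share of Nov held 89.7% to 97.8% of its summed share, and 16.4% of wells had a UMI of it. C1qtnf3 (chr15:10952332-10980150, plus strand), a secreted protein related to complement C1q, had 70.6, 98.5 and 150 CPM in the lowest, median and highest library and a CV of 354.3% ± 42.5. Sema3c (chr5:17574281-17730268, plus strand), a secreted guidance signal, had 46.3, 67.2 and 72.6 CPM and a CV of 325% ± 50.6. For Sema3c the top 10% of wells held 84.0% to 94.0% of the summed share.

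Aspn (chr13:49544443-49567565, plus strand), the gene of the small leucine-rich proteoglycan asporin, combined a high level with a strong split. It had 227, 265 and 312 CPM in the lowest, median and highest library, and its CV ran from 205% to 259%. A UMI of Aspn was present in 38.6% of wells, and in 22.6% when wells were reduced to 3000 UMIs. The chemokine gene Cxcl1, which draws neutrophils, had 125.9, 191.8 and 246 CPM and a CV of 225% ± 22.5. Igf1, the insulin-like growth factor gene, had 81.2, 130 and 154.7 CPM and a CV of 261% ± 17.7. Tnc, the gene of the matrix protein tenascin C, had 27.8, 40.4 and 89.5 CPM and a CV of 290% ± 29.4. The spread of these CVs between libraries was small beside their distance from the median gene.

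The remaining members had CVs of 237% to 339%. They were Nppc, which encodes a natriuretic peptide, Fst, whose product binds activins, Efemp1, a fibulin gene, Fndc1, the protease gene Adamts5, the WNT modulator gene Dkk2, Bmp4, Stmn2, a microtubule regulator known from neurons, Capn6 and Wdr92. Stmn2 had 100, 165 and 231 CPM in the lowest, median and highest library. Wdr92 (chr11:17182107-17233796, plus strand) overlaps Ppp3r1 on the same strand and Pno1 on the other, so its 419 ± 122.4 CPM may hold reads of these genes.

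**Figure D3:**
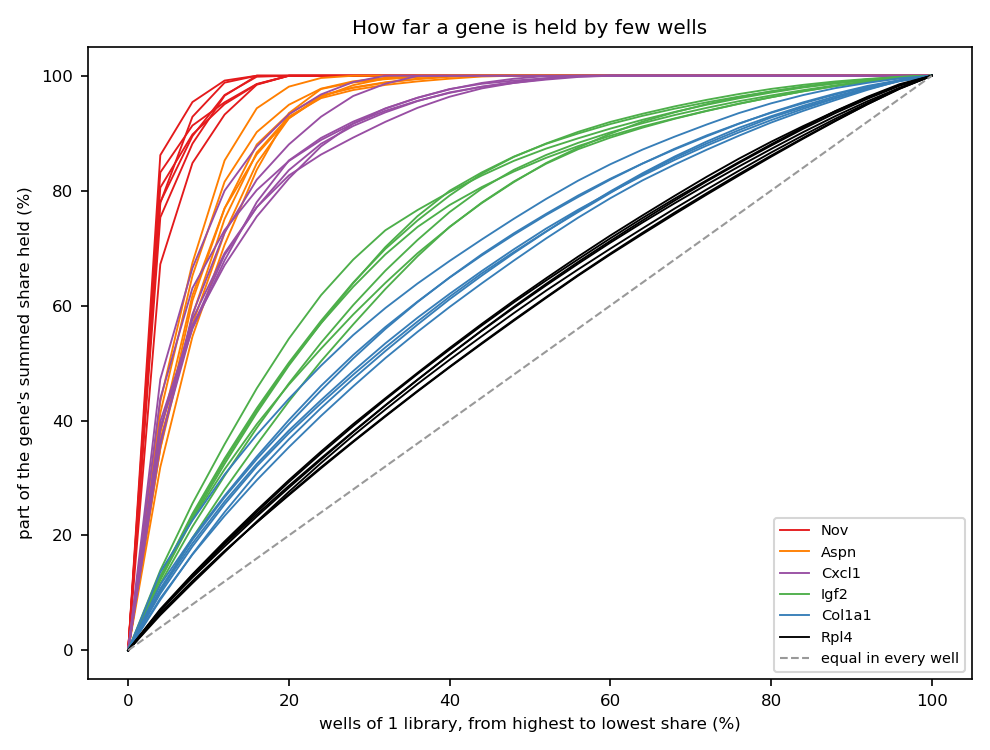
Part of a gene's summed share (%) held by wells ranked from the highest to the lowest share (% of the wells of a library), with 1 line per library for Nov, Aspn, Cxcl1, Igf2, Col1a1 and Rpl4; the dashed line is a gene equal in every well. The lines of Nov rise at once, and those of Rpl4 (CV 23.8% ± 2.54) run closest to the dashed line.

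The last 3 of the 20, Cma1 and Cpa3, proteases of mast cell granules, and Beta-s, an older name of the adult beta-globin gene Hbb-bs, were high in few wells. The CV of Cma1 ran from 104% in library 1 to 1383% in library 7, and that of Beta-s from 68.7% in library 5 to 919% in library 7. Their relative variability was 3.44 (adjusted p = 0.0274), 3.31 (adjusted p = 0.0307) and 3.26 (adjusted p = 0.0364, limma), and each call was lost without some of the libraries: Cma1 without library 2, 4, 5 or 6, Cpa3 without library 2, 3, 6 or 7, and Beta-s without library 1, 2, 4, 6 or 7. Lists of other cell types held at least 1% of UMIs in 13 of the 1155 wells: 9 wells for haemoglobin rows (at most 13.2% of a well), 3 for mast cell genes (at most 2.85%) and 1 for melanocyte genes (1.19%). Without these 13 wells the relative variability was 1.02 for Cpa3 and 0.62 for Beta-s, both still called, and Cma1 fell under the minimum level. A UMI of Beta-s was present in 99.8% of fibroblast-named wells. Its level was 1239 CPM over the summed kept wells, 9334 CPM over the 216 fibroblast-named wells under 3000 UMIs, and 14934 CPM over the spike-in-named wells.

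The other 8 lists of cell type markers held less than 1% of the UMIs in each kept well, and no list was wholly at 0. Keratinocyte markers summed to 202 CPM on average and to 58.5 to 570 CPM by library, endothelial markers to 17.4, immune markers to 21.9, Schwann cell markers to 15.8, skeletal muscle markers to 51.7 and mural cell markers to 190 CPM. The 4 erythroid markers in the table summed to 49.99 CPM and the 12 condensate markers to 223 CPM, against 3244 CPM for the same 12 in condensate-named wells. Spike-in-named wells held 129 UMIs of the keratinocyte markers and 16 of the endothelial ones. A UMI of Xist, the RNA of the inactive X chromosome, was present in 1046 of 1155 wells (90.6%), in 83.1% to 95.4% of the wells of a library, while the 2 Y-linked genes followed (Ddx3y and Uty) had 1 UMI in 1 well.

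Several of the most variable genes varied together over wells. Likeness was measured by Pearson's r of log2(CPM + 100) over the wells of a library, averaged over the 7 libraries (1155 wells); wells of a library share its plate and differ in depth, and the values are a description. Aspn was most like Mfap4 (r = 0.77), a microfibril-associated protein gene, and next Angptl1 (0.77) and Fibin (0.73). Within the 20, Aspn was also close to C1qtnf3 (0.72), Tnc (0.60), Nppc (0.59) and Dkk2 (0.58). Each of these 5 genes had its lowest r of all genes with Crabp1, a retinoic acid binding protein gene, at -0.73 for Aspn, -0.57 for C1qtnf3, -0.48 for Tnc, -0.54 for Nppc and -0.64 for Dkk2.

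Other genes were most like Sema3c. Its nearest gene was the transcription factor gene Klf4 (r = 0.63), followed by Akap12 (0.62) and Nrk (0.61). Fndc1 (0.57), Wdr92 (0.56), Nov (0.55) and Adamts5 (0.55) each had Sema3c as their most alike gene of all those tested. Crabp1 was again at the opposite end for Sema3c (-0.55), Fndc1 (-0.50), Wdr92 (-0.46) and Adamts5 (-0.37), while Nov was farthest from Col6a3 (-0.34). Igf1 was most like Plagl1 (0.59), an imprinted transcription factor gene, and Ogn (0.56), a proteoglycan gene, and ran against Crabp1 too (-0.60).

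Other genes had their nearest gene elsewhere. Stmn2 was most like Sema6d (0.51) and Cav1 (0.47) and had its lowest r with Igf2 (-0.47); its r with Crabp1 was 0.35. Bmp4 was most like Cdkn1a (0.33), Fst like Itih5 (0.31) and Capn6 like Zfhx3 (0.32), all weak. Cxcl1 was most like the thrombospondin genes Thbs1 (0.45) and Thbs2 (0.41), and Efemp1 like Mgst1 (0.49) and Osr2 (0.48). Efemp1 also had r of 0.46 with Fndc1 and 0.44 with Sema3c, while Nov, apart from Sema3c, had only 0.16 with Fndc1 and 0.27 with Wdr92. Cma1 and Cpa3 were each other's nearest gene (0.48), with Tpsb2, another mast cell protease gene, at 0.47 for both.

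**Figure D4:**
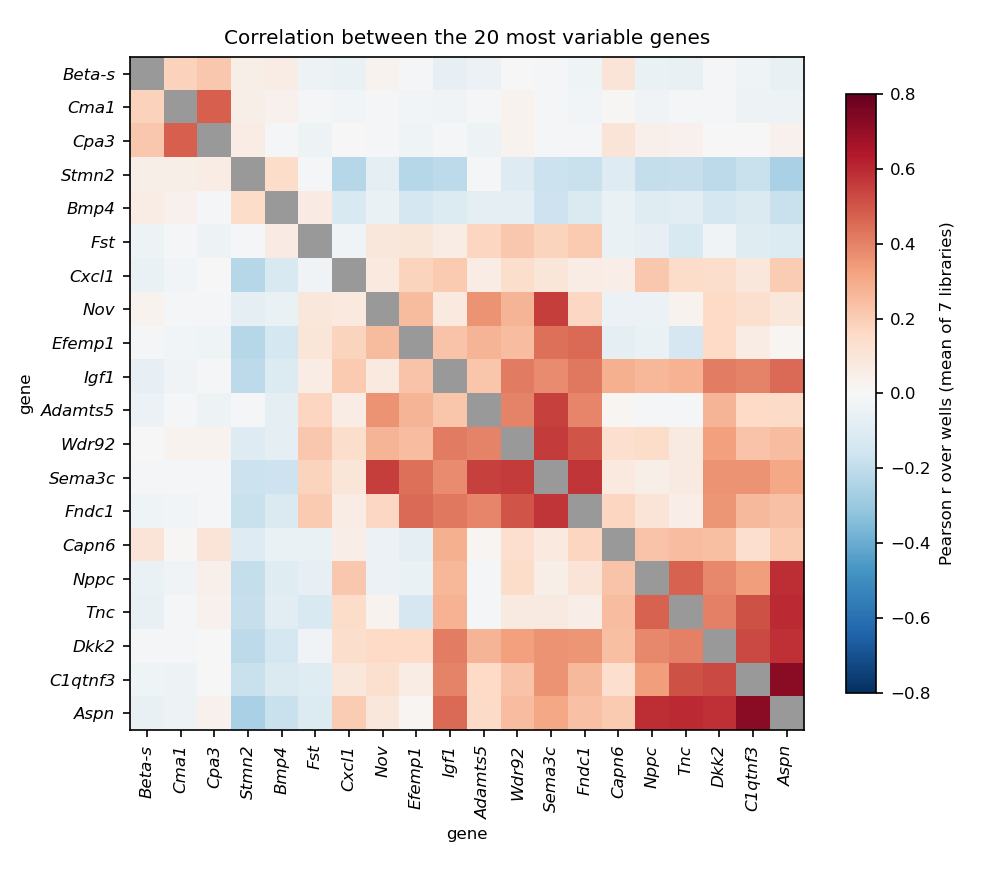
Pearson's r over wells of log2(CPM + 100), mean of the 7 libraries, between the 20 genes of highest relative variability, ordered by average-linkage clustering; the diagonal is left out. One block joins Aspn with C1qtnf3 (0.72), Tnc, Nppc and Dkk2, another joins Sema3c with Fndc1 (0.57), Wdr92, Nov and Adamts5, and Cma1 and Cpa3 (0.48) form a pair.

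Cell division genes had the highest median CV of the lists with at least 10 genes tested. All 50 genes of G2 and mitosis tested were more variable than genes of their level (19.9% of all genes were), with a median CV of 136%, and 31 of 33 S phase genes were, with a median CV of 94.0%. Ube2c, which feeds the ubiquitin ligase that ends mitosis, had 182 CPM in the lowest library, 213 in the median library and 258 in the highest, and a CV of 182% ± 15.9 (relative variability 1.83, SE 0.064, adjusted p = 1.05e-09, limma). Cenpf, a kinetochore gene, had 98.9 ± 18.7 CPM and a CV of 184% ± 24.2, Ccnb1, the mitotic cyclin, 117 ± 12.5 CPM and 171% ± 12.5, and Cdc20, an activator of the same ligase, 66.9 ± 10.3 CPM and 180.6% ± 22.8. Mki67 had 342 ± 55.7 CPM and a CV of 125.6% ± 10.7. In S phase, Rrm2, which makes DNA building blocks, had 164 ± 32.7 CPM and a CV of 125% ± 15.1, and Pcna, the clamp of the replication fork, 530 ± 59.3 CPM and 91.1% ± 5.12. The S phase genes that did not pass were Rfc2 (CV 61.3%, adjusted p = 0.776, limma) and Tipin (75.5%, adjusted p = 0.0669, limma).

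These genes moved together. The mean r over all pairs was 0.58 for the 50 genes of G2 and mitosis and 0.38 for the 33 S phase genes, against 0.02 over all pairs of the 5089 genes. The summed share of G2 and mitosis genes averaged 0.665% ± 0.0555 of UMIs and had a CV of 108% between wells, and it correlated with the S phase share at a mean Spearman rho of 0.32. Its rho with the UMI total of a well was 0.14 on average. With libraries 1, 2 and 4 alone, 16 S phase genes were called more variable.

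Mitotic genes are known to share promoter elements, a CCAAT box that binds NF-Y and the cell cycle genes homology region (CHR). The sequence before the start is therefore shown for the 4 genes of this list with the highest relative variability among those with a promoter entry. Each stretch holds the 150 bases before the annotated start in the gene's own direction (RefSeq, build GRCm38.p6), and capitals mark CCAAT and the CHR forms TTTGAA and TTCGAA on either strand (ATTGG and TTCAAA when reversed).
Ube2c, chr2:164769779-164769928, plus strand: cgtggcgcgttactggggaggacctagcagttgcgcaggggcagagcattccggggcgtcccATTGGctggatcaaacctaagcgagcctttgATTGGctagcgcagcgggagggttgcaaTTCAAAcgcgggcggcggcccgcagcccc
Cenpf, chr1:189688087-189688236, minus strand: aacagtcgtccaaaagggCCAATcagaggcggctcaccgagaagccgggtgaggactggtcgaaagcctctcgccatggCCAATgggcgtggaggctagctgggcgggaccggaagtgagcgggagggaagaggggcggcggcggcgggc
Ccnb1, chr13:100786487-100786636, minus strand: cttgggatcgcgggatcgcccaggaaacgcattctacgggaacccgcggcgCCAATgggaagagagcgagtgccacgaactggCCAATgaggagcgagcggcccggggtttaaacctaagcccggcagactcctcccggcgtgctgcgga
Cdc20, chr4:118437344-118437493, minus strand: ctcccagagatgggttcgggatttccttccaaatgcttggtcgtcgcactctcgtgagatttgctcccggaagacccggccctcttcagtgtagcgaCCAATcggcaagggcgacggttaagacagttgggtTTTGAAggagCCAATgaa
Each of the 4 holds 2 CCAAT boxes in this window, and Ube2c and Cdc20 hold a CHR form as well. In the 250 bases before the start, CCAAT was found in 36 of the 46 list members with an entry (78.3%). It was found in 36.8% of the genes tested for variability and 34.5% of all 27025 promoters. The shares were 41.3% for the genes called more variable and 39.7% for those called less variable. CCAAT together with a CHR form was found in 16 of 46 (34.8%), against 4.84% of the genes tested and 6.21% of all promoters. Both were found in 8.13% of the genes called more variable and 3.48% of those called less variable. A match of these letters is a description, not a bound site.

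Cholesterol synthesis was a further process in which every gene tested was called. Other lists were called in full too, among them lower dermis and fascia (10 of 10) and chemokines and inflammation (6 of 6). All 12 genes of the cholesterol list that were tested were more variable than genes of their level (19.9% of all genes were). Their median CV was 112.9% and their mean r over pairs 0.34. Of the enzyme genes, Hmgcs1 had 209 ± 24.4 CPM and a CV of 104% ± 10.9, Idi1 69.9 ± 24.1 CPM and 121.8% ± 24.2, and Cyp51 118.4 ± 10.4 CPM and 112.7% ± 19.2. The level of Idi1 itself differed between libraries, with 36.5, 69.7 and 112 CPM in the lowest, median and highest. Genes of this pathway are known to share control by SREBP factors acting with NF-Y, and the 2 most variable members with an entry are shown with CCAAT in capitals on either strand (150 bases before the start, RefSeq, GRCm38.p6).
Idi1, chr13:8885456-8885605, plus strand: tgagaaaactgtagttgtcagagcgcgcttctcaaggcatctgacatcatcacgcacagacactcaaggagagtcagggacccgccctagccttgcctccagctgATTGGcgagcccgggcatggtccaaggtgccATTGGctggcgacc
Cyp51, chr5:4104698-4104847, minus strand: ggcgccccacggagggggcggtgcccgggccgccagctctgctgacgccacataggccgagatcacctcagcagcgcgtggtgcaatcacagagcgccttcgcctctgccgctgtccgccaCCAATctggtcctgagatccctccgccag
CCAAT was present in the 250 bases before the start of 10 of the 11 list members with an entry (90.9%), against 36.8% of the genes tested.

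Matrix genes differed widely in their CVs. The fifth of genes with the highest level had a median CV of 40.95%. Of the 5 fibrillar collagen genes tested 4 were more variable than their neighbours (19.9% of all genes were). Col1a1 had a CV of 59.3% ± 8.25, Col1a2 51.1% ± 2.58, Col5a1 45.0% ± 5.25 and Col5a2 43.7% ± 4.06. Col3a1, at 35.2% ± 3.02, did not pass (relative variability 0.02, adjusted p = 0.213, limma). The 5 genes moved together more than any other list measured, with a mean r over pairs of 0.70. The 3 main genes of type VI collagen, a beaded filament around cells, had CVs of 33.9% for Col6a1, 33.9% for Col6a2 and 41.7% for Col6a3. By contrast Col14a1 (CV 168% ± 13.6), Col8a1 (163.1% ± 10.5) and Col12a1 (111% ± 9.88) were far more variable than genes of a like level. Col12a1 and Col14a1 encode collagens that sit on the surface of fibrils.

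Of 22 proteoglycans and matrix partners tested, 21 were more variable (19.9% of all genes were), with a median CV of 114%. Dcn, at 34.0% ± 3.87, was the exception (relative variability 0.01, adjusted p = 0.426, limma), and Lum was close to it at 44.5% ± 6.66. Mfap4 (CV 168% ± 8.95), the proteoglycan gene Ogn (167% ± 13.9), Postn, which encodes periostin (146% ± 10.1), and the elastin gene Eln (130% ± 15.6) lay at the other end. Postn had a mean level of 870 ± 131 CPM, so a gene with a level close to that of Fn1 (1012 ± 104 CPM, CV 81.0% ± 4.24) and ribosomal genes still differed widely between wells.

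Genes known to mark depth in the dermis varied, and the summed shares of their 2 lists opposed each other. Of 12 upper dermis genes tested 11 were more variable, and of 10 genes of the lower dermis and fascia 10 were. Of all genes 19.9% were. Crabp1 had 2076, 2523 and 2860 CPM in the lowest, median and highest library with a CV of 70.5% ± 3.23, the retinoic acid-degrading enzyme gene Cyp26b1 81.0 CPM with 168% ± 11.1, the WNT inhibitor gene Dkk1 44.9 CPM with 200.8% ± 15.7 and Lef1, a transcription factor that acts on WNT signals, 96.3 CPM with 109% ± 7.19. In the comparison with condensate-named wells below, 12 of 18 upper dermis genes were lower in fibroblast-named wells and 3 higher. Cyp26b1 stood at 82.6 CPM there and at 675 CPM in condensate-named wells. Whether condensate-like expression has a part in the spread of the upper dermis genes was not tested. On the lower side, Dlk1 had a CV of 89.1% ± 5.79, Mest 97.6% ± 3.72 and Dpt 115.9% ± 7.21. Over wells, the share of the lower list ran against that of the upper list at a mean rho of -0.79 (from -0.86 to -0.69 by library). Single genes weigh heavily in these shares. The lower list held 0.594% of UMIs, with Dlk1 alone at 3242 CPM, and the upper list 0.463%, with Crabp1 at 2523 CPM in the median library. The mean r over pairs of genes was 0.25 within the lower list and 0.24 within the upper list. Whether the opposition holds without Dlk1 and Crabp1 was not tested.

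The summed shares of these depth lists were also related to those of other lists. Fibrillar collagens correlated with the lower list (rho 0.68) and against the upper list (-0.55), while ribosomal protein genes did the reverse (-0.46 with the lower and 0.53 with the upper list) and ran against the fibrillar collagens (-0.50). Imprinted growth genes correlated with the lower list (0.80, with the 2 shared genes Dlk1 and Mest left out of both) and against the upper list (-0.78). Shares of a total are not free of each other, and depth moved with them: the rho with a well's UMI total was 0.26 for the lower list, -0.26 for the upper list, 0.28 for imprinted genes, 0.24 for fibrillar collagens and -0.42 for ribosomal proteins, and its part in these relations was not tested.

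**Figure D5:**
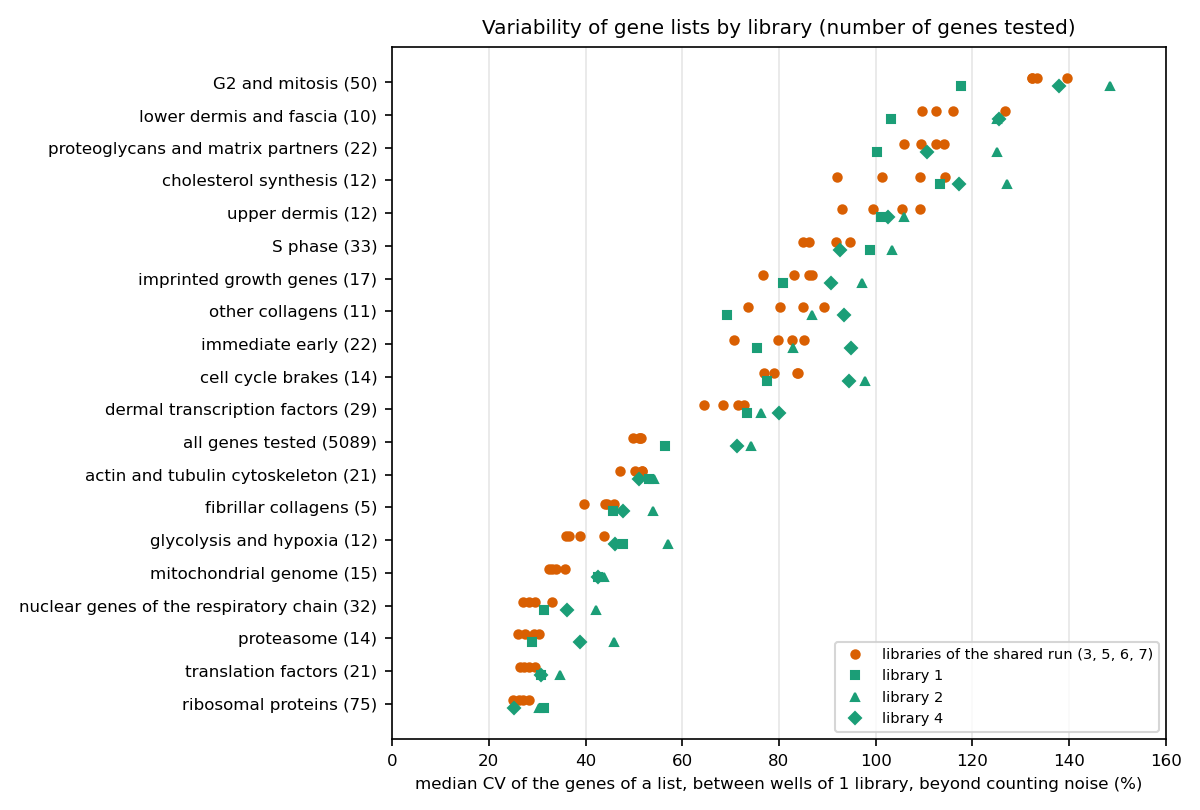
Median CV between wells beyond counting noise (%) of the genes of selected lists in each library, with the number of genes tested in brackets; circles are the libraries of the shared run, other symbols libraries 1, 2 and 4. Of the lists shown, G2 and mitosis genes lie highest (median over genes of 136%) and ribosomal protein genes lowest (27.6%), with all genes at 57.7%.

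Imprinted genes and immediate early genes were uneven at high levels. Of 17 imprinted genes tested 15 were more variable, against 19.9% of all genes. Igf2 (CV 86.97% ± 7.12) and H19 (86.5% ± 8.11) are neighbours in 1 imprinted domain, and Dlk1 (89.1%) and Meg3 (97.4% ± 9.32) in another. Cdkn1c, an inhibitor of the cell cycle, had 1254, 1693 and 2336 CPM in the lowest, median and highest library and a CV of 102.04% ± 10.7. Gnas, the most abundant, had a CV of 37.7% ± 3.65. Of 22 immediate early genes, which are induced within minutes by growth factors and also by cell dissociation, 21 were more variable: Klf4 had a CV of 203% ± 33.34, Fos 74.0% ± 4.20 at 1032 ± 178 CPM, and Egr1 56.1% ± 3.87 at 1449 ± 111 CPM.

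Transcription factors of dermal identity also differed widely in their CVs. Of 29 tested 25 were more variable and 0 less (19.9% and 10.9% of all genes), with a median CV of 74.2%. The mesenchymal factors Twist1 (CV 44.7% ± 3.30 at 793 CPM), Prrx1 (43.4% ± 5.89 at 450 CPM) and Tbx15 (38.4% ± 8.30 at 200.8 CPM) lay under this median. Tbx15 did not pass the test (relative variability -0.07, adjusted p = 0.166, limma). Trps1 (187% ± 42.8) and Sox11 (139.3% ± 31.8), which are also known from condensates, and Osr2 (149%) were uneven. Of the trunk Hox genes, which record position along the body, only members of the Hoxc cluster reached the minimum level. Hoxc8 had 191.7 ± 29.8 CPM and a CV of 98.7% ± 11.8, Hoxc10 64.4 ± 21.7 CPM and 165% ± 32.5, and Hoxc4 46.4 ± 6.62 CPM and 71.9% ± 12.4, and Hoxc4 did not pass (adjusted p = 0.747, limma).

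Fibroblast-named wells were also set against condensate-named wells of the same plates, in libraries 2 to 7, to place the profile. If the names follow clusters of these same cells, this comparison describes the naming. With edgeR (quasi-likelihood test, library blocked), 1679 of 11017 genes were higher in fibroblast-named wells (15.2%) and 1134 lower (10.3%). All 6 fibroblast markers were higher. Col1a1 had 9008 ± 2525 CPM in fibroblast-named and 1629 ± 534 CPM in condensate-named wells (SD, n = 6 libraries; CPM of the summed wells here), a log2 fold change of 2.67 (SE 0.107, adjusted p = 1.38e-26, edgeR). Pdgfra differed least, at 320 ± 17.3 and 205 ± 43.1 CPM (0.77, SE 0.144, adjusted p = 2.81e-05, edgeR).

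The 20 genes of highest relative variability did not all go one way. In the same test 14 of them were higher in fibroblast-named wells, among them C1qtnf3 (5.42, SE 0.387), Aspn (4.89, SE 0.250) and Cxcl1 (3.88, SE 0.263), 2 were not called, and 4 were lower, namely Igf1 (-1.58, SE 0.143), Fst (-1.40, SE 0.234), Stmn2 (-0.82, SE 0.169) and Bmp4 (-3.21, SE 0.152). Bmp4 is a condensate marker: it had 52.8 ± 8.84 CPM in fibroblast-named and 569 ± 200 CPM in condensate-named wells. Collagens did not all go one way. Of type VI collagen, Col6a2 stood at 2381 ± 243 and 3412 ± 496 CPM (-0.33, SE 0.093, adjusted p = 0.00488, edgeR) and Col6a3 at 1633 ± 115 and 2731 ± 154 CPM (-0.56, SE 0.093, adjusted p = 3.22e-06, edgeR), lower in fibroblast-named wells in 6 of 6 libraries. The basement membrane collagen genes Col4a1 (-0.80, SE 0.121) and Col4a2 (-1.04, SE 0.126), and Col11a1 (-1.52, SE 0.255) and Col23a1 (-3.18, SE 0.136), were also lower there.

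Over all genes, 15.2% were higher in fibroblast-named wells and 10.3% lower, with a median log2 fold change of 0.04. Of the uneven processes, 14 of 19 cholesterol synthesis genes were higher there and 0 lower, with a median of 1.30. For imprinted growth genes 14 of 17 were higher and 1 lower, and for chemokines 12 of 14 were higher and 0 lower, with Cxcl12, the ligand of Cxcr4, at 180.7 ± 17.5 and 11.7 ± 8.93 CPM (4.46, SE 0.302). Genes of G2 and mitosis were higher in 39 of 54 and lower in 0, but this count was 14 without the library block, 13 in the shared run alone and 23 with wells of at least 10000 UMIs. Ribosomal protein genes were higher in 22 of 78 with a median of only 0.16, in 11 without library 5 and in 8 without the library block.

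Finally, the fibroblast-named wells of the shared run (libraries 3, 5, 6 and 7) were set against those of libraries 1, 2 and 4, to show which levels depend on the library. In edgeR's quasi-likelihood test 2603 of 11360 genes had an unadjusted p under 0.05. After adjustment 229 of the 11360 were higher in the shared run (2.02%) and 424 lower (3.73%), and a gene not called is not shown to be alike. These counts hung on single libraries: without library 1 the shares were 3.002% higher and 5.60% lower, without library 2 1.18% and 2.09%, without library 3 0.453% and 1.20%, without library 4 0.967% and 1.78%, without library 5 0.524% and 1.14%, without library 6 1.33% and 2.89%, and without library 7 0.716% and 1.87%. The run, the depth of the libraries and any difference between their animals cannot be told apart here.

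Calls are given here for the genes named by level or relative variability and the fibroblast markers, not for all list members. Sparc (log2 fold change 0.46, SE 0.113), H19 (0.57, SE 0.142), Igf2 (0.41, SE 0.106), Rpl4 (0.37, SE 0.089), C1qtnf3 (0.67, SE 0.144), Cma1 (1.45, SE 0.362) and Cpa3 (1.68, SE 0.313) were higher in the shared run. Eef1a1 (-0.37, SE 0.089), Lsm7 (-0.81, SE 0.222), Mrps24 (-0.46, SE 0.124), Gm13826 (-1.63, SE 0.272) and Gm10653 (-1.16, SE 0.180) were lower. Of these genes only Cpa3, Gm13826 and Gm10653 kept the call whichever library was left out. Of 81 ribosomal protein genes 2 were higher and 19 lower, and the count of lower ones was 7 without library 3, 10 without library 4, 7 without library 5 and 9 without library 7.

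Further lists held more calls than all genes did (2.02% higher and 3.73% lower). Higher in the shared run were 3 of 4 mast cell genes and 4 of 17 imprinted growth genes, with 0 lower in either. Of 54 genes of G2 and mitosis 6 were lower and 0 higher. The 1 gene tested of the X inactivation list was lower too (log2 fold change -0.58). Keratinocyte markers were another such list. Of 7 tested 5 were higher in the shared run and 0 lower, with Krt5 at 21.6 CPM in the lowest library, 68.04 in the median library and 306 in the highest (log2 fold change 2.59, SE 0.464, adjusted p = 0.00916, edgeR). The count was 3 without library 3 and 3 without library 6. These levels lie far under those of the fibroblast genes, and spike-in-named wells held 129 UMIs of the same markers among 57719.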

How the data were processed

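The deposited table holds 1 column per well and 20370 rows, 86 of them spike-in RNAs. Its values are estimated counts (expected counts), not whole numbers: each value above 0 in the deposited table fits a whole number of UMIs corrected for barcode collisions in a space of 4096 barcodes, within a tolerance of 0.005. They were rounded to whole numbers and are called UMIs. Rounding changed 13.5% of the values above 0, and the rounded sum was 101% of the whole numbers recovered from the formula. Per the submitters' processing notes, the build was mm10 and the tools named are BWA 0.6.2-r126, Cufflinks 2.1.1, TopHat2 2.0.3 and Bowtie2, and which of them made this table is not given in the sources used here. A correction for collisions raises high counts most, and free RNA can add UMIs of abundant genes to every well.

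Fibroblast-named wells of at least 3000 UMIs were kept, with no removal of doublets. Columns were assigned to libraries by the library name they carry, and 0 columns had no sample. The members and the gene lists were chosen with earlier results of these data known, and the mast cell and haemoglobin lists were added after the data were seen. Variability was the CV between wells, estimated from pairs of UMIs so that counting noise drops out, and relative variability was its log2 value minus the running median of genes of a like level in the same library. Relative variability was tested over the 7 libraries with limma 3.58.1 (intercept, trend and robust) for the 5089 genes with a mean of at least 0.1 UMI per 3000. UMIs summed per library were tested with edgeR 4.0.16 (quasi-likelihood, TMM, filterByExpr). The library was a block for fibroblast-named against condensate-named wells, since both groups lie on the same plate. That design had assumed whole counts. Adjusted p-values follow Benjamini and Hochberg over all genes tested, with calls under 0.05. The limma test and the edgeR comparisons were run on simulated data, with genes drawn independently and the same spread for all unchanged genes. The genes of the wells differ from this in both respects, and the alternative tests were not simulated. DESeq2 1.42.0 and other alternatives were also run, and R 4.3.3, Python 3.11.15, numpy 2.4.6, pandas 2.3.3 and scipy 1.17.1 were used.

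Genes were named by rule: the 25 with the highest mean level, the 20 with the highest and the 15 with the lowest relative variability among those called with 1 direction in all 7 libraries, the gene most correlated with each of the 20, and members of the lists. Promoter sequences come from RefSeq. Some genes are not reported here.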

Additional observations from a re-analysis of the deposited data

Results flagged for a closer look

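Of 82 sets of values over the 7 libraries (levels, CVs and list medians), 7 held a library whose gap to the nearest other was over Dixon's limit for 7 samples as a share of the whole range. Chance flags about 1 set in 20. Of these sets, 4 concerned library 4. There mt-Rnr2, a mitochondrial ribosomal RNA, stood at 7181 CPM, against 15393 to 21400 CPM in the other libraries. In the same library Col1a1 stood at 3955 CPM, against 8650 to 10748 CPM. Col3a1 was high there, at 20308 CPM against 14862 to 16053 CPM, and so was Lgals1, a galectin gene, at 4483 CPM against 2689 to 3445 CPM.

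Library 2 was high for Rn45s, the ribosomal RNA precursor, with 52474 CPM against 13289 to 28769 CPM in the others. Library 1 was high for the imprinted antisense RNA Kcnq1ot1, with 7484 CPM against 2319 to 3844 CPM, and the CV of Kcnq1ot1 between the wells of library 1 was 362%. In library 1 the CV of Nppc was 552%, against 260% to 331% in the others.

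Outside the compared wells, the deepest well named for spike-ins, in library 4, held 3529 UMIs of mouse genes, while the other spike-in-named wells held 36 to 1520.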

How the results depend on the processing

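Of the 82 alternative counts of called genes, 58 were within 1.5 times the reported count. The reported shares are 19.9% more and 10.9% less variable. With genes of a mean of at least 0.5 UMI per 3000, 31.2% of 926 genes were more and 26.9% less variable. In libraries 1, 2 and 4 alone 11.1% (573 genes) were more and 1.22% (63) less variable, and in the shared run alone 6.98% were less variable. Set against the library median, 22.8% (1159) were less variable. Under limma's treat with a minimum difference of 0.1, 0.766% (39) were less and 740 genes more variable. Leaving out each library in turn gave 18.2% to 19.7% more and 7.88% to 9.31% less variable. Without the wells rich in other cell types' genes, an alternative chosen after seeing the data, 1022 genes were more and 558 less variable.

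For fibroblast-named against condensate-named wells, libraries 2 and 4 alone called 4.47% higher (427 genes) and 2.46% lower (235). The fit with no replicate block called 1393 higher and 1235 lower, DESeq2 called 1272 and 1058, and leaving out each library gave 12.8% to 14.1% higher and 8.51% to 10.1% lower. Cpa3 reversed in libraries 2 and 4 alone, with a log2 fold change of -0.016 against 0.81. Between the shared run and the other libraries, no filter on low genes gave 3.17% higher (573) and 3.96% lower (717), and leaving out each library 0.453% to 3.002% higher and 1.14% to 5.60% lower. Scaling by RLE or DESeq2 moved the median log2 fold change of all genes by less than 0.1 in both. Of the alternatives for relative variability of a named gene, 506 kept direction and call and 38 lost the call, among them those of Cpa3, Cma1 and Beta-s. Their cause was not tested. Cma1, at a mean of 39.8 CPM, fell under the minimum level without library 7 and gave no value there.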
